A study of Mus musculus with 6 samples.

Results

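Among the 46095 gene symbols of the deposited expression table, 10 encode the core of the circadian clock and are described here: Arntl, Clock, Npas2, Per1, Per2, Per3, Cry1, Cry2, Nr1d1 and Dbp. They were selected by name, and each had 1 row in the table. The 6 RNA-seq libraries were made from the livers of C57BL/6 mice (cell type given as hepatocyte) fed a high-fat diet for 26 weeks, 3 from wild-type mice and 3 from ARRB1-/- mice. ARRB1 encodes a beta-arrestin, a scaffold protein that binds activated G protein-coupled receptors. The study's question was what ARRB1 deficiency does in fatty liver disease brought on by diet. Groups follow the sample titles, although 2 of the knockout libraries (replicates 2 and 3) carry a genotype label of ARRB2-/- or ARRB3-/-. Every library came from animals on the high-fat diet, so no lean liver is part of the comparison. The hour of collection, the light schedule, the feeding state, the sex of the mice and the extent of the deletion (whole body or liver) are not given in the sources used here. Whether each library is 1 animal is not stated either, and p-values therefore measure only how these libraries spread.

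The mammalian clock is a transcriptional loop. The proteins of Arntl (BMAL1) and of Clock or its relative Npas2 pair up, bind E-box sequences and switch on the Per and Cry genes, whose proteins accumulate and shut the pair down. A second loop runs through Nr1d1 (REV-ERB alpha), which the pair also switches on and which represses Arntl, Npas2, Cry1 and Nfil3 through ROR response elements. Dbp is a direct output of the pair and encodes a transcription factor that binds D-boxes in liver genes of detoxification and metabolism. In mouse liver Arntl, Clock and Npas2 peak near the end of the night, Nr1d1 and Dbp during the day and Per2 in the early night, with Cry1 later in the night.

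The libraries differed in depth. Read numbers recovered from the steps of the values put wild-type replicates 1 to 3 at 0.95, 0.796 and 0.864 of the depth of knockout replicate 2, the deepest, and knockout replicates 1 and 3 at 0.397 and 0.832. Knockout replicate 1 was thus the shallowest, with 16975 genes above 0 against up to 19124 in the others. All 14 hepatocyte markers were detected, with a summed level of 71850 to 83729 FPKM (fragments relative to gene length and to library total) in wild type and 65365 to 75098 FPKM in knockout, and 1 was called, Cps1, which fell from 308 ± 22.9 to 180 ± 13.0 FPKM (SD, n = 3 each; limma, adjusted p = 0.00794). For comparison with this 1 of 14 and with the other marker lists below, 6.90% of all tested genes were called, 5.30% higher and 1.60% lower. For 6 of the 14 all knockout libraries lay below wild type and for 1 above, against 7.81% below and 23.4% above among all tested genes. Markers of other cells were also present, with summed levels of 196 to 220 FPKM against 204 to 226 FPKM for Kupffer cells, 62.9 to 74.6 against 69.6 to 81.5 FPKM for endothelium and 98.2 to 123 against 109 to 157 FPKM for stellate cells. Cholangiocyte markers summed to 30.0 to 60.6 against 36.8 to 97.8 FPKM, lymphocyte markers to 1.15 to 1.84 against 1.50 to 3.46 FPKM, and red cell markers to 26.7 to 68.0 against 17.4 to 117 FPKM. Called were Vsig4 (lower) of 6 tested Kupffer markers, Lyve1 and Pecam1 (higher) of 5 endothelial markers and Col1a1 (higher) of 6 stellate markers. Of 5 tested red cell markers, the globin genes Hbb-b1 and Hbb-b2 were called higher. None of 4 tested cholangiocyte markers was called, and 0 lymphocyte markers were tested. Hbb-b1 and Hbb-b2 passed the filter of a mean of 1 FPKM over the 6 libraries only through their knockout libraries. The globin genes include near-identical sequences and did not move together. Hbb-b1 was at 0.0476 to 0.284 FPKM in wild type and 8.22 to 40.4 FPKM in knockout. Hbb-b2 was at 0 in every wild-type library and at 1.69 to 9.37 FPKM in knockout. By contrast, Hbb-bs averaged 20.4 against 8.19 FPKM, Hbb-bt 5.26 against 2.23 FPKM and Hba-a1 18.4 against 17.2 FPKM, none of these 3 called. Hbb-b1 and Hbb-b2 had no position in the gene annotation used, and Hbb-bs and Hbb-bt lie on chromosome 7, as Arrb1 does. The cause of the globin difference was not tested. No marker of these lists was listed at 0 in all libraries, and the part of these cells in the clock results was not tested. The targeted gene, Arrb1, had 3.86, 22.7 and 16.9 FPKM in the wild-type libraries against 0.918, 1.05 and 1.16 FPKM in those labelled knockout (log2 fold change -2.64 ± 0.514, SE; limma, adjusted p = 0.0275). Its groups did not overlap, in the direction of the titles, but leaving out any 1 library other than wild-type replicate 1 ended its call (adjusted p from 0.0596 to 0.1001).

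Of the 10 core clock genes, 9 were tested and 4 of these differed in the knockout libraries. Dbp and Nr1d1 rose, and Arntl and Cry1 fell (limma, Benjamini-Hochberg adjusted p under 0.05). The background was 6.90% called among all 10633 tested genes, 5.30% higher and 1.60% lower. Of all calls, 76.8% were higher, and after median-of-ratios scaling 59.9%. With knockout replicates 2 and 3, whose genotype labels deviate, both left out, 0 of the 4 members were called (limma, adjusted p from 0.0836 to 0.193), each with the same direction. As the groups of these 4 members did not overlap, leaving out libraries could not turn their direction. With no filter on low values, where 22476 genes were tested, 0 of the 4 were called as well (limma, adjusted p from 0.0519 to 0.110). Per2 lay below wild type in all 3 knockout libraries without passing the test, and Clock, Npas2, Per1 and Cry2 had overlapping groups. Per3 was the 1 gene below the filter of a mean of 1 FPKM over the 6 libraries. Dbp, with a wild-type mean of 0.926 FPKM, passed that filter only through its knockout libraries, and the counts given here include it. In all, 5 of the 9 tested members had groups that did not overlap, 2 higher and 3 lower, against a background of 31.2% of tested genes in either direction, 23.4% higher and 7.81% lower. In bulk samples, fewer cells of a type and less RNA per cell cannot be told apart.

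**Figure D1:**
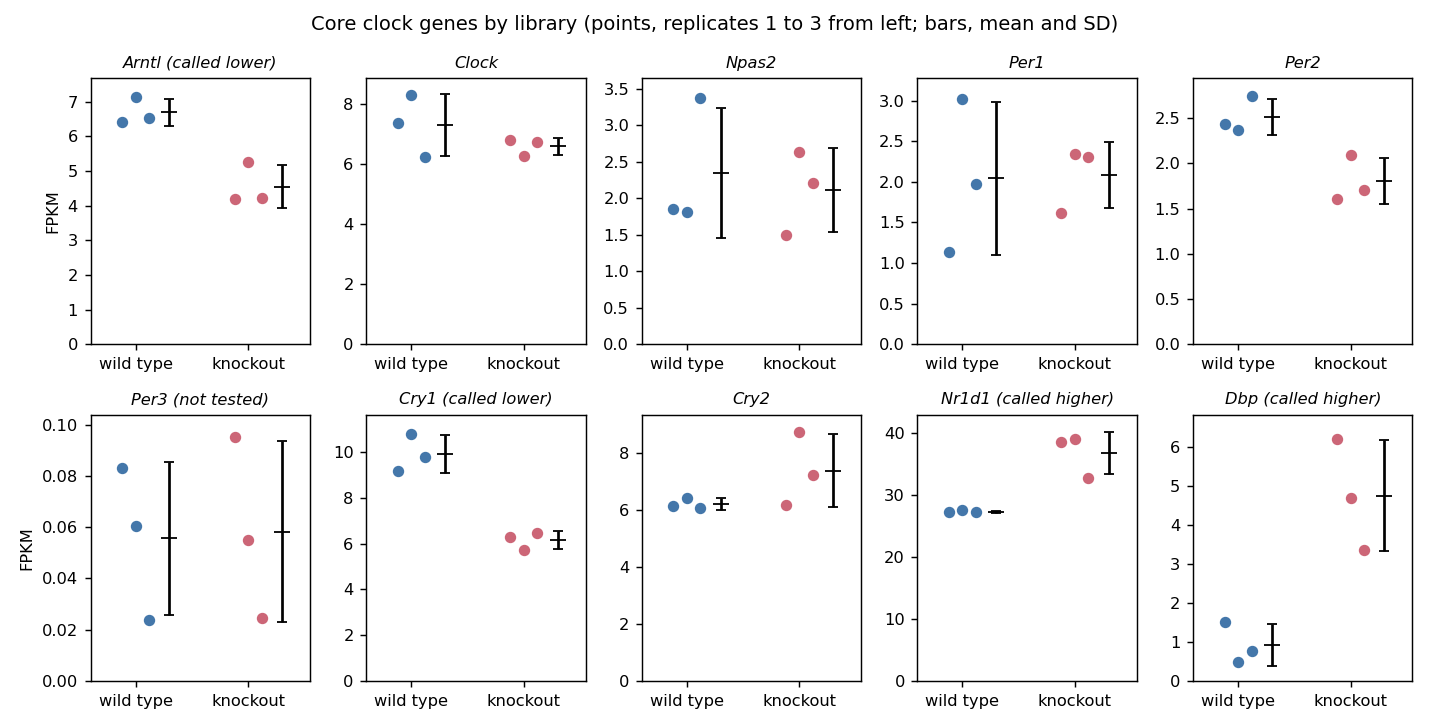
FPKM of each core clock gene in the 3 wild-type (blue) and 3 knockout (red) libraries, with the mean and SD beside the points and linear axes from 0. For Dbp, Nr1d1, Arntl, Cry1 and Per2 the points of the 2 groups do not overlap, and Per3 stays under 0.1 FPKM in every library.

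The sequences just upstream of the start sites of the 4 genes that changed are shown because E-boxes and ROR response elements are the sites through which the loop is known to act on them. They are from RefSeq promoter windows (GRCm38.p6), 250 bases up to the base before the start site, 5′ to 3′ on the strand of the gene, with capitals marking any of the motifs searched on both strands: the E-box CACGTG, its variant CACGTT, the D-box TTATGTAA or TTACGTAA, and the ROR element core TAGGTCA or TGGGTCA.
Dbp, chr7:45704997-45705246, plus strand: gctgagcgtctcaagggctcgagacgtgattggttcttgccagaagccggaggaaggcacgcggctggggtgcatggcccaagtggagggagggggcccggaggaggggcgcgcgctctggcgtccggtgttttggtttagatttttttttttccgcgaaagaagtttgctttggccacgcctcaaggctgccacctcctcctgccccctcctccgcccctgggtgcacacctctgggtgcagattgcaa
Nr1d1, chr11:98775378-98775627, minus strand: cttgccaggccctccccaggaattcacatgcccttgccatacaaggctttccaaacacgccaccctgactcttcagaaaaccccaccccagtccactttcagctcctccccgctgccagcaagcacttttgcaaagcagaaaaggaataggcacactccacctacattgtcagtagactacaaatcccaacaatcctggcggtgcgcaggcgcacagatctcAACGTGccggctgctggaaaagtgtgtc
Cry1, chr10:85185055-85185304, minus strand: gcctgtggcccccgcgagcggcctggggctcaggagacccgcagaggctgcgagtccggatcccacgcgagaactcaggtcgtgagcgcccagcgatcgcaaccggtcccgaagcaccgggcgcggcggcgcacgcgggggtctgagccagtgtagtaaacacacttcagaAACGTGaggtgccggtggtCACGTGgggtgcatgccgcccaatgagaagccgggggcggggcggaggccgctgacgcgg
Arntl, chr7:113207215-113207464, plus strand: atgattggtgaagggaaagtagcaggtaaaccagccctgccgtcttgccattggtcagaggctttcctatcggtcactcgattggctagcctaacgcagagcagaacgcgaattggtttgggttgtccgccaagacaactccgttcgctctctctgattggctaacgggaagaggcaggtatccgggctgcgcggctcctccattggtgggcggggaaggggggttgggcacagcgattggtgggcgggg
Arntl, element after its second annotated start site, chr7:113207530-113207559, plus strand: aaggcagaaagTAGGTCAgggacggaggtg
The Cry1 window held both a CACGTG, starting 60 bases before the start site, and a CACGTT on the opposite strand, starting 79 bases before it. The Nr1d1 window held a CACGTT on the opposite strand, 28 bases before the start site. Arntl held none of the motifs in the 250 bases printed, and a TAGGTCA 31 bases into the transcript from its second start site. The Dbp window held none of these letters, and bases outside the windows were not searched. Of the 32851 windows of 300 bases in the table (250 before to 50 after a start site), 7.15% held CACGTG, 4.68% CACGTT, 1.06% a D-box and 6.45% a ROR element core. The motifs were searched in the windows of the 9 members present in the table, and a match is a description of the sequence only.

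Dbp, the output transcription factor (chromosome 7, 45705088 to 45710203, plus strand, GRCm38), had the largest difference of the 10. Its level was 1.52, 0.491 and 0.767 FPKM in the wild-type libraries, in the order of their replicate numbers, and 6.21, 4.71 and 3.37 FPKM in the knockout libraries. The lowest knockout library was thus above the highest wild-type library. The means were 0.926 ± 0.533 FPKM and 4.76 ± 1.42 FPKM (SD, n = 3 each), a ratio of 5.14, and the log2 fold change was 1.59 ± 0.238 (SE; limma, adjusted p = 0.0133), with an exact two-sided permutation p of 0.1, the smallest that 3 against 3 libraries allow. All fold changes given are of log2(FPKM + 1), and adding 1 FPKM shrinks the change of a gene this low. The wild-type values rested on 85, 23 and 39 reads and the knockout values on 145, 277 and 165. The wild-type mean alone was below the filter, which Dbp passed through its knockout libraries. Exons of Dbp share 539 bases, 18.01% of its exonic length, with exons of Sphk2, a sphingosine kinase gene on the opposite strand. Sphk2 was at 14.3, 13.6 and 14.0 FPKM in the 3 wild-type libraries against 23.8, 22.3 and 23.5 FPKM in the 3 knockout libraries (log2 fold change 0.69 ± 0.0761, SE; limma, adjusted p = 0.00483). Strand handling is not given in the sources used here, and reads of the shared bases cannot be told apart. Dbp was no longer called with no filter (adjusted p = 0.0722), or when wild-type replicate 2 (0.0516) or knockout replicate 2 (0.0586) was left out.

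Nr1d1, the nuclear receptor that represses Arntl (chromosome 11, 98767932 to 98775333, minus strand), was the most abundant of the 10. It was at 27.2, 27.5 and 27.3 FPKM in wild type and at 38.5, 39.0 and 32.8 FPKM in knockout. The 3 wild-type libraries spanned 0.015 on the log2 scale, the narrowest range of any member within a genotype, and each knockout library was above them. The means were 27.3 ± 0.160 FPKM and 36.8 ± 3.43 FPKM (SD, n = 3 each), a ratio of 1.35 and a difference of 0.41 ± 0.0911 on the log2 scale (SE; limma adjusted p = 0.0405; exact permutation p = 0.1). Nr1d1 exons share 263 bases, 8.55% of its exonic length, with Thra on the opposite strand, a thyroid hormone receptor gene that measured 6.75 to 7.05 FPKM in wild type and 6.40 to 8.50 FPKM in knockout (limma, adjusted p = 0.530). This was the call most dependent on the settings: it was lost with no filter (adjusted p = 0.0859), eBayes without trend (0.0529), median-of-ratios scaling (0.0839), quantile normalization (0.0925) and the replicate number as a block (0.0798), and with any 1 library left out except knockout replicate 3 (up to 0.139, without knockout replicate 2).

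Arntl, the obligate partner in the activating pair (chromosome 7, 113207465 to 113314126, plus strand), went the other way. It measured 6.40, 7.14 and 6.53 FPKM in the wild-type libraries and 4.18, 5.25 and 4.21 FPKM in the knockout ones. Knockout replicate 2 was the nearest to wild type and still below it. The means were 6.69 ± 0.396 FPKM and 4.55 ± 0.608 FPKM (SD, n = 3 each), with wild type 1.47 times knockout and a difference of -0.48 ± 0.106 on the log2 scale (SE; limma adjusted p = 0.0405; exact permutation p = 0.1). The call was lost with no filter (adjusted p = 0.110) and with the replicate number as a block (0.0536). As its groups did not overlap, leaving out a library could not turn the sign. None of the 6 fits with 1 library left out called Arntl. The limma adjusted p was smallest with knockout replicate 2 left out (0.0539) and largest with wild-type replicate 2 left out (0.133). Arntl and Dbp lie on the chromosome of the targeted gene, Arntl 13.6 Mb and Dbp 53.8 Mb from Arrb1. Whether this position has a part in their differences was not tested.

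Neither partner of Arntl was called. Clock (chromosome 5, 76209868 to 76304792) measured 7.38, 8.28 and 6.23 FPKM in the 3 wild-type libraries against 6.79, 6.27 and 6.72 FPKM in the 3 knockout libraries, where all values fell inside the wild-type range. Its log2 fold change was -0.12, with a 95% interval from -0.38 to 0.13 (limma, adjusted p = 0.529). Npas2, which can stand in for Clock (chromosome 1, 39193731 to 39363236), measured 1.85, 1.82 and 3.37 FPKM in the wild-type libraries and 1.50, 2.63 and 2.21 FPKM in the knockout ones. Wild-type replicate 3 was the highest and knockout replicate 1 the lowest, and the interval of the difference ran from -0.58 to 0.40 (limma, adjusted p = 0.826).

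Of the 2 cryptochromes, the repressors that block the activating pair, Cry1 fell and Cry2 was not called. Cry1 (chromosome 10, 85131700 to 85185064, minus strand) measured 9.19, 10.8 and 9.78 FPKM in the 3 wild-type libraries against 6.29, 5.70 and 6.48 FPKM in the 3 knockout libraries. All knockout libraries were below all wild-type libraries, with means of 9.93 ± 0.822 FPKM and 6.16 ± 0.405 FPKM (SD, n = 3 each), wild type being 1.61 times knockout. The difference on the log2 scale was -0.61 ± 0.0943 (SE; limma adjusted p = 0.0150; exact permutation p = 0.1), and it was no longer called with no filter (0.0519) or with wild-type replicate 2 (0.0572) or knockout replicate 2 (0.0607) left out. Cry2 (chromosome 2, 92403646 to 92434043, minus strand) measured 6.12, 6.43 and 6.06 FPKM in the wild-type libraries and 6.18, 8.74 and 7.21 FPKM in the knockout ones. Knockout replicate 1 lay among the wild-type libraries and the other two above them, with no call (95% interval of the log2 fold change from -0.07 to 0.49; limma, adjusted p = 0.321). Within each library the ratio of Cry1 to Cry2, in which any factor common to a library cancels, was 1.50, 1.68 and 1.61 in wild type and 1.02, 0.653 and 0.898 in knockout. Cry1 was thus the more abundant cryptochrome in every wild-type library and in 1 knockout library by a narrow margin.

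The Period genes encode the other repressors of the loop. Per2 (chromosome 1, 91415982 to 91459324, minus strand) measured 2.44, 2.37 and 2.74 FPKM in the 3 wild-type libraries against 1.61, 2.09 and 1.71 FPKM in the 3 knockout libraries. The groups did not overlap, with means of 2.52 ± 0.198 FPKM and 1.80 ± 0.257 FPKM (SD, n = 3 each), but the difference of -0.33 ± 0.112 on the log2 scale (SE) did not pass (limma adjusted p = 0.121; exact permutation p = 0.1). After quantile normalization Per2 was called lower (adjusted p = 0.0480). Per1 (chromosome 11, 69095217 to 69109960, plus strand) measured 1.14, 3.02 and 1.97 FPKM in the wild-type libraries and 1.62, 2.34 and 2.30 FPKM in the knockout ones, with the lowest and the highest library both in wild type (interval from -0.47 to 0.59; limma, adjusted p = 0.901). Per3 (chromosome 4, 151003652 to 151044665, minus strand) was at 0.0831, 0.0604 and 0.0238 FPKM in the 3 wild-type libraries against 0.0952, 0.0549 and 0.0248 FPKM in the 3 knockout libraries. These values rest on 23, 14 and 6 reads and on 11, 16 and 6 reads, and no difference was detectable at that depth.

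Ordered by mean level over the 6 libraries on the FPKM scale, Nr1d1 stood at 32.0 FPKM, well above Cry1 at 8.04, Clock at 6.95, Cry2 at 6.79 and Arntl at 5.62 FPKM. Dbp at 2.85, Npas2 at 2.23, Per2 at 2.16 and Per1 at 2.06 FPKM followed, and Per3 was last at 0.0570 FPKM. The 6-library ranges of Cry1, Clock, Cry2 and Arntl overlapped between neighbours, as did those of Arntl and Dbp and of Dbp, Npas2, Per2 and Per1, while Nr1d1 and Per3 overlapped with no other member. The order differed between the genotypes. Below Nr1d1, by group means, Cry1 (9.93 FPKM) led Clock (7.30), Arntl (6.69) and Cry2 (6.20) in wild type, whereas in knockout Cry2 (7.38 FPKM) led Clock (6.59), Cry1 (6.16) and Dbp. In wild type the Dbp mean of 0.926 FPKM was the lowest of the 10 apart from Per3, and in knockout its mean of 4.76 FPKM exceeded those of Npas2, Per1, Per2 and Arntl (2.11, 2.09, 1.80 and 4.55 FPKM), with Arntl exceeded in knockout replicate 1 only.

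**Figure D2:**
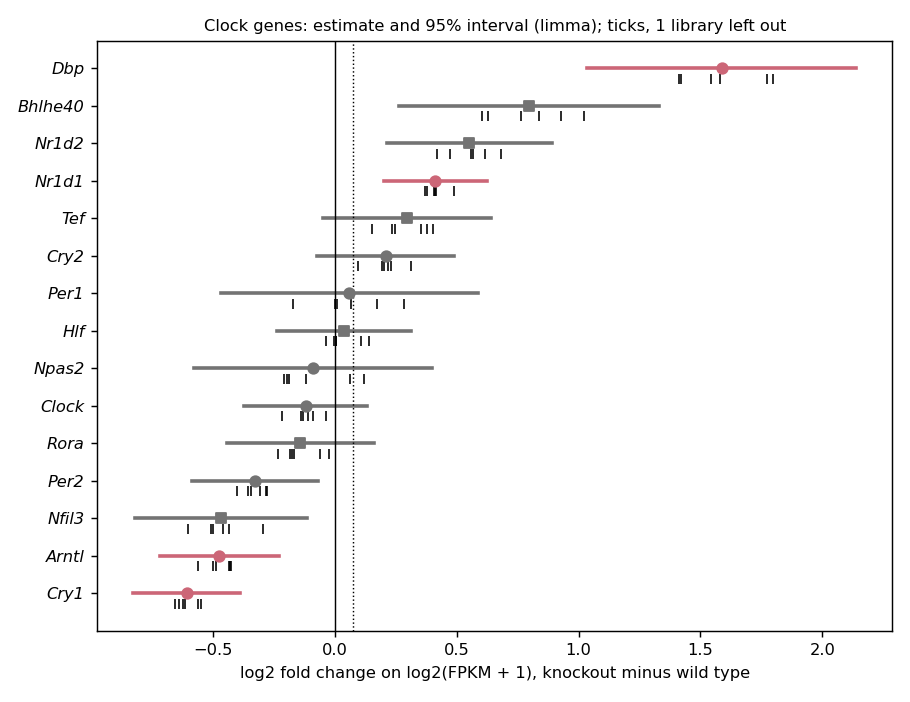
Log2 fold change on log2(FPKM + 1), knockout minus wild type, for the 9 tested core clock genes (circles) and 6 tested genes of the list of other clock factors (squares), with 95% intervals from limma, genes called in red, and a tick for each fit with 1 library left out. The dotted line is the median of all tested genes, 0.07, and only Npas2, Per1 and Hlf have ticks on both sides of 0.

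Of 7 ratios computed between genes within each library, 6 had groups that did not overlap, and Per2 to Per1 did overlap. Dbp relative to Arntl was 0.238, 0.0688 and 0.118 in wild type and 1.49, 0.897 and 0.801 in knockout. The mean ratio was 0.141 ± 0.0869 against 1.06 ± 0.371 (SD, n = 3 each), 7.51 times higher in knockout. Nr1d1 relative to Arntl was 4.25, 3.85 and 4.18 in wild type and 9.20, 7.42 and 7.79 in knockout, and Nr1d1 relative to Cry1 was 2.96, 2.54 and 2.79 against 6.11, 6.83 and 5.06. Neither ratio had overlapping groups, and both means were about the same multiple higher in knockout, 1.99 and 2.17. A scaling factor per library cancels in these ratios, and they restate members whose own differences are given above. Clock relative to Arntl was 1.15, 1.16 and 0.955 in wild type and 1.62, 1.19 and 1.60 in knockout, so knockout replicate 2 came close to wild type.

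**Figure D3:**
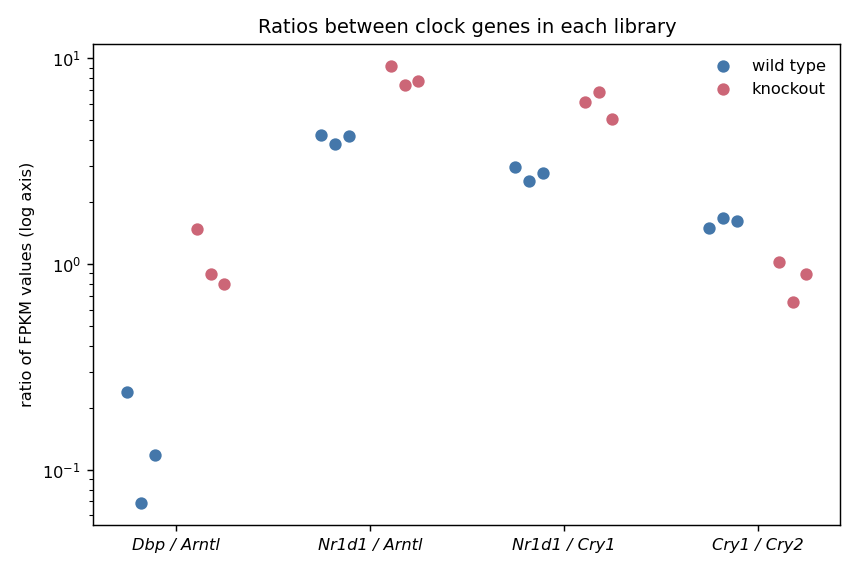
Ratio of FPKM values between pairs of core clock genes in each of the 3 wild-type (blue) and 3 knockout (red) libraries, on a log axis. The first 3 ratios are higher in every knockout library and Cry1 to Cry2 is lower in every knockout library.

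Agreement across libraries was also examined by how pairs of genes order the libraries, as a description without a test. Of the 15 pairs of libraries, Arntl and Cry1 ordered 13 the same way, as did Arntl and Per2, whereas Arntl and Dbp ordered 1 the same way and Cry1 and Dbp also 1. Most of these pairs lie between genotypes, where the differences already given set the order. Among the 6 pairs within a genotype, Arntl and Dbp ordered 1 the same way, and Arntl and Cry1 ordered 4. The low agreement of Dbp was not particular to Arntl. Dbp ordered 1 of 6 as Cry1, Per1, Rora and Bhlhe40 did and 0 as Nr1d2 did. Its highest agreement was 4 of 6, with Tef and Hlf. Within genotypes Nr1d1 ordered 5 of 6 pairs as Arntl did, and 2 of 6 as Dbp did. Over all 15 pairs it ordered 5 as Arntl did and 11 as Dbp did. The wild-type values of Nr1d1 spanned only 0.015 on the log2 scale, so the order of those libraries says little. Knockout replicate 1 had the lowest Arntl (4.18 FPKM) and the highest Dbp (6.21 FPKM) of the 6 libraries, and wild-type replicate 2 had the highest Arntl (7.14 FPKM) and the lowest Dbp (0.491 FPKM). The mean log2 deviation of Per1, Per2, Per3, Nr1d1 and Dbp minus that of Arntl, Clock and Npas2 was -0.22, -0.29 and -0.36 in wild type and 0.43, 0.24 and 0.19 in knockout. Centring on the 6-library mean makes the values of the genotypes sum to 0, so their opposite sign is no finding. Dbp, with deviations from -1.13 to 1.15, had the widest range in this average, and Per2 in the same average went the other way.

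**Figure D4:**
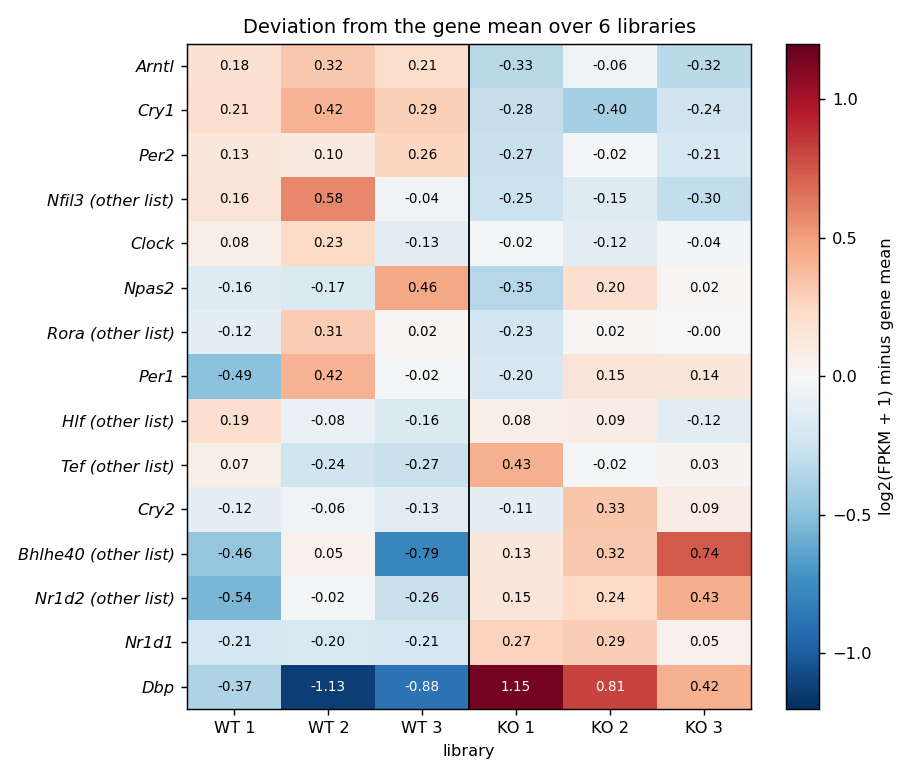
Deviation of log2(FPKM + 1) from the gene's mean over 6 libraries for the tested core clock genes and the tested genes of the list of other clock factors, with the value in each cell (WT, wild type; KO, knockout; red, above the mean). Arntl, Cry1 and Per2 are above their mean in every wild-type library and below it in every knockout library, and Nr1d1, Nr1d2 and Dbp are the reverse.

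The list of other transcription factors and repressors of the clock had 11 genes, of which 6 passed the filter and 0 were called by limma. Of the 6, 2 lay wholly above and 1 wholly below wild type, against 23.4% and 7.81% of all tested genes. At an unadjusted p under 0.05 there were 3, against 25.3% of all tested genes, voom on recovered reads called 1 (Nr1d2), and the median log2 fold change was 0.16 against 0.07 over all tested genes. Nr1d2 (REV-ERB beta), the relative of Nr1d1, measured 6.54, 9.85 and 8.15 FPKM in the wild-type libraries and 11.2, 12.01 and 13.9 FPKM in the knockout ones. Its groups did not overlap, and its log2 fold change of 0.55 ± 0.145 (SE) missed the threshold (limma, adjusted p = 0.0637). Bhlhe40 (DEC1), a repressor that competes for E-boxes, measured 25.5, 36.9 and 20.2 FPKM in the 3 wild-type libraries against 39.0, 44.6 and 59.9 FPKM in the 3 knockout libraries, also without overlap (log2 fold change 0.80 ± 0.230, SE; limma, adjusted p = 0.0810). Nfil3 (E4BP4), which opposes Dbp at D-boxes, measured 14.7, 19.9 and 12.6 FPKM in the wild-type libraries and 10.7, 11.6 and 10.4 FPKM in the knockout ones, again without overlap (log2 fold change -0.47 ± 0.152, SE; limma, adjusted p = 0.108).

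The remaining tested factors had overlapping groups. The D-box factors Tef and Hlf, relatives of Dbp, measured 10.7, 8.45 and 8.26 against 14.0, 10.01 and 10.4 FPKM and 10.4, 8.51 and 7.96 against 9.63, 9.71 and 8.21 FPKM. Their log2 fold changes of 0.29 and 0.04 were below that of Dbp, and the ratio of Dbp to Tef was 0.142, 0.0581 and 0.0928 in wild type and 0.443, 0.470 and 0.324 in knockout. The ROR activator Rora, which acts on the elements that Nr1d1 represses, measured 7.58, 10.5 and 8.44 against 6.92, 8.41 and 8.29 FPKM, with a log2 fold change of -0.14 (limma, adjusted p = 0.534). Bhlhe41, Ciart, Arntl2 and Timeless were under 0.6 FPKM in each library, and Rorb was listed at 0. The promoter table held a ROR element core in the Nfil3 window, on the opposite strand and starting 12 bases before the start site, as shown here with an E-box of Per1.
Nfil3, chr13:52981040-52981069, minus strand: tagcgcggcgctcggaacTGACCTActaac
Per1, chr11:69098771-69098800, plus strand: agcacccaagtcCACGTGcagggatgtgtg

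Of the genes whose products modify clock proteins, 15 were listed and 12 tested. None was called by limma or voom, with 2 (against 25.3% of all tested genes) having an unadjusted p under 0.05, and their median log2 fold change was 0.00. Csnk1e and Csnk1d, the casein kinases that mark Period proteins for degradation, measured 1.23, 1.51 and 1.48 against 1.93, 1.98 and 2.22 FPKM and 19.3, 20.8 and 21.0 against 23.1, 28.4 and 23.6 FPKM. In both cases each knockout library lay above each wild-type library (limma, adjusted p = 0.105 and 0.136). Of the 12 tested, 2 lay wholly above and 1 wholly below wild type, against 23.4% and 7.81% of all tested genes. The deacetylase gene Sirt1 (log2 fold change -0.26, limma adjusted p = 0.233, with all knockout libraries below wild type) and the ubiquitin ligase gene Fbxw11 (0.15, adjusted p = 0.363) were not called. Csnk2b was listed at 0 in all libraries although its product is part of a kinase of every cell, so a 0 in this table need not mean absence.

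Liver genes with a daily rhythm downstream of the clock moved in both directions. Of 16 tested, 3 were higher and 1 was lower, against 5.30% higher and 1.60% lower among all tested genes. Their median log2 fold change was 0.05, against 0.07 over all tested genes. Gys2, the liver glycogen synthase gene, rose from 38.7, 34.9 and 42.8 FPKM to 52.0, 60.3 and 53.7 FPKM (limma, adjusted p = 0.0336). Insig2, a brake on the sterol-regulated factors whose rhythm is known to depend on REV-ERB alpha, rose from 140, 105 and 152 FPKM to 191, 222 and 263 FPKM (adjusted p = 0.0381). Rgs16, which encodes an inhibitor of G protein signalling, measured 6.47, 14.9 and 25.6 FPKM in the 3 wild-type libraries against 37.4, 75.5 and 48.1 FPKM in the 3 knockout libraries (log2 fold change 1.84 ± 0.442, SE; limma, adjusted p = 0.0498). Elovl3, a fatty acid elongase gene, fell from 330, 418 and 496 FPKM to 178, 173 and 284 FPKM (adjusted p = 0.0414). Alas1 and Por, known D-box targets named here after their values were seen, had log2 fold changes of 0.01 and 0.03 with overlapping groups (95% intervals from -0.48 to 0.49 and from -0.58 to 0.64). They do not stand for the list. Cyp7a1 and Upp2, also named afterwards, were below wild type in every knockout library without a call (log2 fold changes -2.51 and -0.96; limma, adjusted p = 0.0674 and 0.0997). In this list 4 genes lay wholly above and 3 wholly below wild type, against 23.4% and 7.81% of all tested genes. Leaving out wild-type replicate 1 or 2 or knockout replicate 2 left 0 calls in this list, knockout replicate 1 or 3 left 1, and wild-type replicate 3 left 4.

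Genes that respond to fasting and feeding, which shift with meal time, were higher for 1 and lower for 1 of 11 tested (median log2 fold change -0.42). Among all tested genes 5.30% were higher and 1.60% lower. Of the 11, 1 lay wholly above and 2 wholly below wild type, against 23.4% and 7.81% of all tested genes. Cpt1a, the gatekeeper of fatty acid entry into mitochondria, rose from 134, 110 and 112 FPKM to 171, 207 and 180 FPKM, by 0.65 ± 0.115 (SE, log2; limma, adjusted p = 0.0215). Tat, a gene of tyrosine breakdown, fell by 1.27 ± 0.305 on the log2 scale, from 609, 1060 and 619 FPKM to 223, 273 and 462 FPKM (adjusted p = 0.0495). Srebf1, a lipid synthesis regulator, was at 78.4, 70.7 and 69.5 FPKM in wild type and at 43.4, 55.9 and 59.3 FPKM in knockout, without overlap, and missed the threshold (adjusted p = 0.0709). Igfbp1, which encodes a binding protein of insulin-like growth factors and rises in fasting, ranged from 120 to 717 FPKM in wild type and from 20.6 to 373 FPKM in knockout, with overlap (adjusted p = 0.262). Leaving out wild-type replicate 2 or 3 or knockout replicate 2 left 0 calls, and leaving out any other library left 1.

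Immediate early genes, which are switched on rapidly by growth factor and stress signals, as Per1 can be, varied within both genotypes. Their summed level over 12 genes was 133, 779 and 602 FPKM in the wild-type libraries and 92.8, 182 and 445 FPKM in the knockout ones, so that replicate 1 was the lowest library of each genotype. None of the 10 tested was called by limma or voom, none had an unadjusted p under 0.05, and the median log2 fold change was -0.80. Jun measured 21.4, 111 and 90.4 FPKM in the 3 wild-type libraries against 11.2, 26.9 and 49.6 FPKM in the 3 knockout libraries. Per1 was likewise lowest in replicate 1 of each genotype. Of the 6 pairs of libraries within a genotype, it ordered 5 the same way as Jun, Junb and Zfp36 and 4 the same way as Egr1. This agreement was not particular to immediate early genes. Per1 ordered all 6 pairs as Arntl and Rora did, and 5 as Cry2, Nr1d1 and Nr1d2 did. The part of the immediate early signal in the differences of the other clock genes was not tested.

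**Figure D5:**
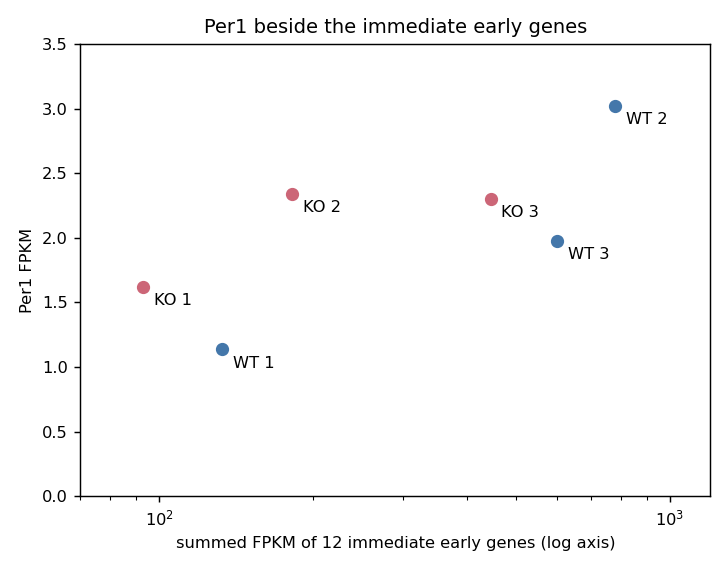
Per1 level in FPKM against the summed FPKM of 12 immediate early genes (log axis) in the 3 wild-type (blue, WT) and 3 knockout (red, KO) libraries. Replicate 1 of each genotype is lowest on the x axis within its genotype and also has the lowest Per1 level there.

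The genes with profiles most like those of 2 members were found by the root-mean-square difference of log2(FPKM + 1), centred on each gene's mean, over the 6 libraries and among 10624 other tested genes. Nearest to Arntl were Nat8, a cysteine conjugate acetyltransferase gene (difference 0.0447), Ndufaf6 (0.0598), Chac2 (0.0627), Nedd1 (0.0643) and the angiotensin receptor gene Agtr1a (0.0715). Nat8, which has close relatives in the genome, measured 5.91, 6.49 and 6.31 FPKM in the wild-type libraries and 3.81, 5.22 and 3.75 FPKM in the knockout ones. Nearest to Dbp were Rcan2, which encodes a calcineurin regulator (0.165), Acss3 (0.195), Pnldc1 (0.212), the monoglyceride lipase gene Mgll (0.214) and Cyp3a59 (0.227), a cytochrome with near copies. Rcan2 measured 3.05, 2.03 and 1.82 FPKM in the 3 wild-type libraries against 9.35, 9.02 and 5.50 FPKM in the 3 knockout libraries. Having been chosen for their likeness to Dbp and Arntl, these genes differ between the genotypes by that choice.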

How the data were processed

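The values analysed are FPKM, deposited by the authors as 1 value per gene symbol and library. The submitters' processing notes list Bowtie 0.12.2, HISAT2, mm8 and mm10, without roles. The annotation, strand setting and handling of multi-mapped reads are not given in the sources used here. The 10 members and the other lists were chosen with earlier results of these data known, and some genes of these lists are not reported here.

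Knockout was compared with wild type on log2(FPKM + 1) by limma 3.58.1 (R 4.3.3; two-sided, moderated with a mean-variance trend). Genes averaging 1 FPKM or more over the 6 libraries, 10633 in all, were tested, and p-values were Benjamini-Hochberg adjusted over all of them at a threshold of 0.05. Reads were recovered from the FPKM steps: 17545 of the 17549 genes detected in 4 or more libraries came out whole (tolerance 0.001 reads plus 5e-08 of the count, at most 0.05 reads). With wrong totals 0% of 2000 genes did. That check was searched only up to 2000 reads and the recovery up to 200000, so the shares are not directly comparable. These reads cover at least 84.1% of the FPKM of a library and were used for depth, counting error and the voom alternative. Positions are from GENCODE vM21 (GRCm38), promoters from RefSeq (GRCm38.p6). Reads were also simulated with the means and depths of these libraries, and 10615 genes were tested. Of 100 genes changed 2-fold 50% were recovered, and of 100 changed 4-fold 96%, and 6 of 152 calls were unchanged genes. The spread between simulated libraries was assumed and not estimated from these data, and no other genes were changed. These shares therefore need not hold for the real comparison. By rule, the genes named are Arrb1, the members, all detected genes of the list of other clock factors, up to 4 genes with the smallest p from each other list and the 5 nearest profiles to Arntl and Dbp. Alas1, Por, Cyp7a1, Upp2, Csnk2b and some cell markers were named outside this rule, after their values were seen. Alternatives were a pseudocount of 0.1, no filter or 5 FPKM, TPM, median-of-ratios and quantile scaling, eBayes without trend or robust, array weights, a replicate block, leaving out each library, both knockout libraries with deviating genotype labels together, and voom on recovered reads, which was chosen after seeing the data. Python 3.11.15 with scipy 1.17.1 ran the exact permutation tests.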

Additional observations from a re-analysis of the deposited data

How the results depend on the processing

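Arntl and Cry1 stayed lower and Nr1d1 higher in all 18 alternatives, and Dbp stayed higher in each one that tested it. The groups of these genes did not overlap, so their signs were fixed in advance in the alternatives that only left out libraries. Core clock genes called higher, 2 as reported, were 0 with no filter, 1 with the filter at 5 FPKM, where Dbp was not tested, 1 with median-of-ratios scaling, quantile normalization or eBayes without trend, and 0 with knockout replicates 2 and 3 both left out. Those called lower, 2 as reported, were 3 after quantile normalization, where Per2 was called, 0 with no filter and 0 with both knockout libraries left out. With 1 library left out the counts ran from 0 to 2 higher and from 0 to 1 lower. The replicate block gave 1 higher and 1 lower core clock gene. Same-numbered libraries did not deviate together (correlations 0.17, -0.063 and 0.097), and not every library correlated best with its own number, so the numbers were not taken to pair the libraries. Under the block the calls of all genes were 280 higher and 122 lower, and 1 glucocorticoid-responsive and 2 immediate early genes were called. Fitting with only knockout replicate 1 assumes that it varies like wild type.

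All genes called higher, 564 as reported, were 990 on the TPM scale, 88 with no filter, 371 after quantile normalization, 346 with median-of-ratios scaling, 30 with both knockout libraries left out and 94 to 422 with 1 library left out. All genes called lower, 170 as reported, were 58 with no filter, 42 with both knockout libraries left out and 54 to 119 with 1 left out. The share of calls that were higher was 76.8% as reported, 64.5% after quantile normalization and 59.9% with median-of-ratios scaling. Arrb1 kept a log2 fold change of -2.64 but lost its call with no filter (adjusted p = 0.117) and with robust eBayes (0.0769), and was -2.73 (0.264) with both knockout libraries left out and -3.33 to -2.19 with 1 left out.

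Of the other clock factors, 1 was called on the TPM scale and 1 with voom (Nr1d2 in both), and 2 with array weights. Rhythmic output genes, 4 called as reported, were 0 with no filter, 2 after median-of-ratios scaling, 0 with both knockout libraries left out and 0 to 4 with 1 left out. Feeding genes, 2 called as reported, were 1 with a pseudocount of 0.1, quantile normalization, array weights, robust eBayes or eBayes without trend, 0 with no filter, 0 with both knockout libraries left out and 0 to 1 with 1 left out. With array weights 1 glucocorticoid-responsive gene was called, and with 1 library left out 0 to 2.

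Signs turned only for genes that were not called. Npas2 was 0.023 with array weights and -0.21 to 0.12 with 1 library left out. Per1 was -0.012 with median-of-ratios scaling, -0.033 after quantile normalization, -0.17 to 0.28 with 1 library left out and -0.17 with both knockout libraries left out, where Cry2 was -0.0039. Hlf was -0.059, -0.052 and -0.067 with median-of-ratios scaling, quantile normalization and array weights, and -0.038 to 0.14 with 1 library left out. The cause of these changes was not tested, apart from the smaller number of libraries where some were left out. Depth limits Per3 and the wild-type level of Dbp.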

Other observations

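Other signals that are known to act on clock genes were compared with the lists of glucocorticoid- and temperature-responsive genes. Of 7 tested glucocorticoid-responsive genes, none was called by limma, 1 had an unadjusted p under 0.05 (against 25.3% of all tested genes), and the median log2 fold change was 0.27. Cdkn1a, a cell cycle inhibitor gene also under p53 control, measured 11.9, 15.2 and 36.0 FPKM in the wild-type libraries and 33.5, 57.0 and 61.1 FPKM in the knockout ones (limma, adjusted p = 0.0837), with wild-type replicate 3 inside the knockout range. Zbtb16, Mt2 and Tsc22d3 had log2 fold changes of 0.87, 1.07 and -0.19 with overlapping groups (limma, adjusted p = 0.250, 0.350 and 0.596). Without wild-type replicate 3, Cdkn1a and Zbtb16 were called higher.

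Of 7 tested temperature-responsive genes, none was called by limma or voom, 1 likewise had an unadjusted p under 0.05, and the median log2 fold change was -0.01. The cold-inducible RNA-binding protein genes Rbm3 and Cirbp measured 6.31, 5.99 and 4.45 against 3.65, 5.09 and 3.18 FPKM and 6.56, 6.66 and 6.80 against 5.77, 6.20 and 7.04 FPKM (limma, adjusted p = 0.182 and 0.690). The heat-shock genes Hspa8 and Dnajb1 had log2 fold changes of 0.19 and -0.40 with overlapping groups (adjusted p = 0.582 and 0.431).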
